A study of Mus musculus with 8 samples.

Results

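In sorted germ cells of synchronized mouse testes, 39 genes had a nearby ATAC-seq peak in both libraries collected 120 h after retinoic acid (RA) and in both libraries of no earlier timepoint. They were chosen from the deposited assignment of peaks to genes, 0.189% of the 20673 genes scored as accessible at any timepoint. Because the presence of a peak chose these genes, the presence and heights of their peaks are given as a description, without a test. An earlier timepoint was scored only when both of its libraries had a peak, so these genes can still have had a peak in single earlier libraries.

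Spermatogonia are the mitotic germ cells of the testis. RA drives the undifferentiated cells into a series of differentiating divisions that end in B spermatogonia, the last generation before meiosis. ATAC-seq uses a transposase that cuts open chromatin, so tags pile up at promoters and at distal elements such as enhancers. Open chromatin at a distal element does not by itself say which neighbouring gene the element acts on.

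The cells were eGFP-positive germ cells of PIWIL2-eGFP mice, whose transgene marks germ cells from before birth to early spermatids. All mice had received the RA synthesis inhibitor WIN 18,446 at 100 mg/kg per day for 7 days from 2 dpp. The 0 h mice received no RA, and the 18, 48 and 120 h mice were collected at those times after 200 µg RA at 9 dpp. There were 2 libraries per timepoint. The labels name a C57BL/6 x 129s4/SvJae background while the methods name C57BL/6 x SJL. The peaks per library numbered 72215 and 69089 (0 h), 28889 and 34423 (18 h), 25941 and 33982 (48 h), and 39551 and 24643 (120 h). The measured quantity was the summit value, the tag coverage at the highest point of a peak after the authors had brought all libraries to the same number of tags. The lowest summit value of any library was 24 or 25. Where a library had no listed peak its signal is not known, and it is not taken as 0.

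The 39 genes traced back to a small number of places. Both 120 h libraries had a peak in the same region for 37 of them, and these lay in 28 distinct regions, since 15 of the genes shared 6 regions with each other. The remaining pair, Cryaa and LOC101056043, had peaks at different places in the 120 h libraries. Each of the 28 regions was itself a region at 120 h only. The rule makes this nearly certain, so it is not a result about the 39 genes. That class held 1526 of 61310 regions (2.49%). In 1123 of its 1151 regions with an assigned gene, none of the assigned genes was among the 39. By RefSeq the genes comprised 25 protein-coding genes, 3 rRNA genes, 2 miRNA genes, 3 T cell receptor delta segments, 1 lncRNA and 2 pseudogenes, and 3 names were not matched.

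The 5 regions with the highest value in the lower 120 h library among those without a peak in any earlier library are printed here as 300 bases around the summit in GRCm38 (mm10), because they show the kind of sequence that was open at 120 h. Capitals mark matches, on either strand, to any of the 12 motifs described further on. The region assigned to Cyp11a1 lay in an exon of the non-coding gene Gm17322, those assigned to Mir1930 and Vipas39 lay in introns of Ube2g2 and Noxred1, and those assigned to Krt33a and Npc2 were intergenic in GENCODE vM21.
Cyp11a1, chr9:58005515-58005814, plus strand: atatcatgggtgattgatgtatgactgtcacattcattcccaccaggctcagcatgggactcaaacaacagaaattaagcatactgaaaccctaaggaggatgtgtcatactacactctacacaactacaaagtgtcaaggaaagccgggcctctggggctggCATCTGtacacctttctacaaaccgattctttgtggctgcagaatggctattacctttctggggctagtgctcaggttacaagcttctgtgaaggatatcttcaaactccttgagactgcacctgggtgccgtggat
Krt33a, chr11:100004075-100004374, plus strand: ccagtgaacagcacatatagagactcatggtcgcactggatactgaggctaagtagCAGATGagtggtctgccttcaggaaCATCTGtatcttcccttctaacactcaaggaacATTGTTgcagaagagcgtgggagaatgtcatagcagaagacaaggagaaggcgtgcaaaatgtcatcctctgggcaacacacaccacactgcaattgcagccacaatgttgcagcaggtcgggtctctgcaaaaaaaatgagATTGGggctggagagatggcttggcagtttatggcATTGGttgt
Mir1930, chr10:77639947-77640246, plus strand: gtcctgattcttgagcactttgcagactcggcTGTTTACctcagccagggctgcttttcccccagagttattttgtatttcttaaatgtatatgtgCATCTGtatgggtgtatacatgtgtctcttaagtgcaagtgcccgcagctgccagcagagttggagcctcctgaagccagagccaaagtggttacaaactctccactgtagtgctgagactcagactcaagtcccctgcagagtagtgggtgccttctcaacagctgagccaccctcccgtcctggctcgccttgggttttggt
Vipas39, chr12:87237035-87237334, plus strand: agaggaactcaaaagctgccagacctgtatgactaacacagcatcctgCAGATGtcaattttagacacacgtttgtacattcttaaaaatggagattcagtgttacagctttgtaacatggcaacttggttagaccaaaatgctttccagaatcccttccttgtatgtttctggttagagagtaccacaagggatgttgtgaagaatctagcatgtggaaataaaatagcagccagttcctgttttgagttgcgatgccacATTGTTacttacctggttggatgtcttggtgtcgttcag
Npc2, chr12:84749691-84749990, plus strand: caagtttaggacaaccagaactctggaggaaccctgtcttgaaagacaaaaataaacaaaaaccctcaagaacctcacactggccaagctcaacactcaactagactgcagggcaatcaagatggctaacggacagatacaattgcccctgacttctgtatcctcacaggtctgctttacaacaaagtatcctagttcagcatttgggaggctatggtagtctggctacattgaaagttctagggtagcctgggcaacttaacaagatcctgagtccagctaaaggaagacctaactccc

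The highest peaks belonged to Fam118a and Cyp11a1. The summit values of Fam118a, a protein-coding gene, reached 254 and 136 at 120 h. A peak of 48 was called for it in 0 h replicate 2, with none in the other earlier libraries. The Fam118a region was upstream by the deposited positions but in an intron of Fam118a in GENCODE vM21. It was also assigned to Upk3a, which was accessible at all 4 timepoints, and 72.0% of the 300 bases were masked as repeats. Cyp11a1, which encodes the enzyme that cleaves the cholesterol side chain in the first step of steroid synthesis and is used in the testis as a Leydig cell marker, had values of 212 and 102 at 120 h and no assigned peak in any earlier library. Both genes had the higher value in 120 h replicate 1, and 48 of the 1526 regions at 120 h only had a lower 120 h value above that of Fam118a, against 121 above that of Cyp11a1.

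The Cyp11a1 peak rests on the gene model. The deposited table places it at -9353 bp from the gene start in 120 h replicate 1, whereas RefSeq also has a Cyp11a1 start at chr9:57998024, and a region around that start gave 322 and 354 (0 h), 111 and 121 (18 h), 84 and 128 (48 h), and 122 and 90 (120 h). In the comparison of heights described further on, and singled out after its values were seen, that region fell by 0.60 on the log2 scale at 120 h (SE 0.17, limma adjusted p = 0.0148). Centred on each library's median, its means were 0.46 (0 h), 0.17 (18 h), 0.15 (48 h) and -0.34 (120 h). Before centring, the 120 h values lay among those at 18 and 48 h, and only the 0 h values stood apart. With the RefSeq start, Cyp11a1 was accessible at all 4 timepoints. The region at 120 h only, chr9:58005477-58005996, then lies inside the gene (chr9:57998024-58027031) and not upstream of it. Of 16 markers of somatic testis cells, 14 had a peak in at least 1 library and Cyp11a1 was the single one among the 39 genes. By the deposited assignment 7 of the markers were accessible at all 4 timepoints, as were 15054 of all 20673 accessible genes. At 0 h only there were 2 of the markers, and 2666 of all accessible genes. The number of these markers with a peak at the gene start was 8 and 7 (0 h), 4 and 4 (18 h), 5 and 5 (48 h), and 5 and 3 (120 h). The total number of peaks also differed between libraries, and the share over all gene starts was not counted per library. These counts are therefore not a result about somatic cells. The part of somatic cells in the Cyp11a1 peak was not tested. In pools of cells, fewer cells with an open site and a less open site in each cell cannot be told apart.

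**Figure D1:**
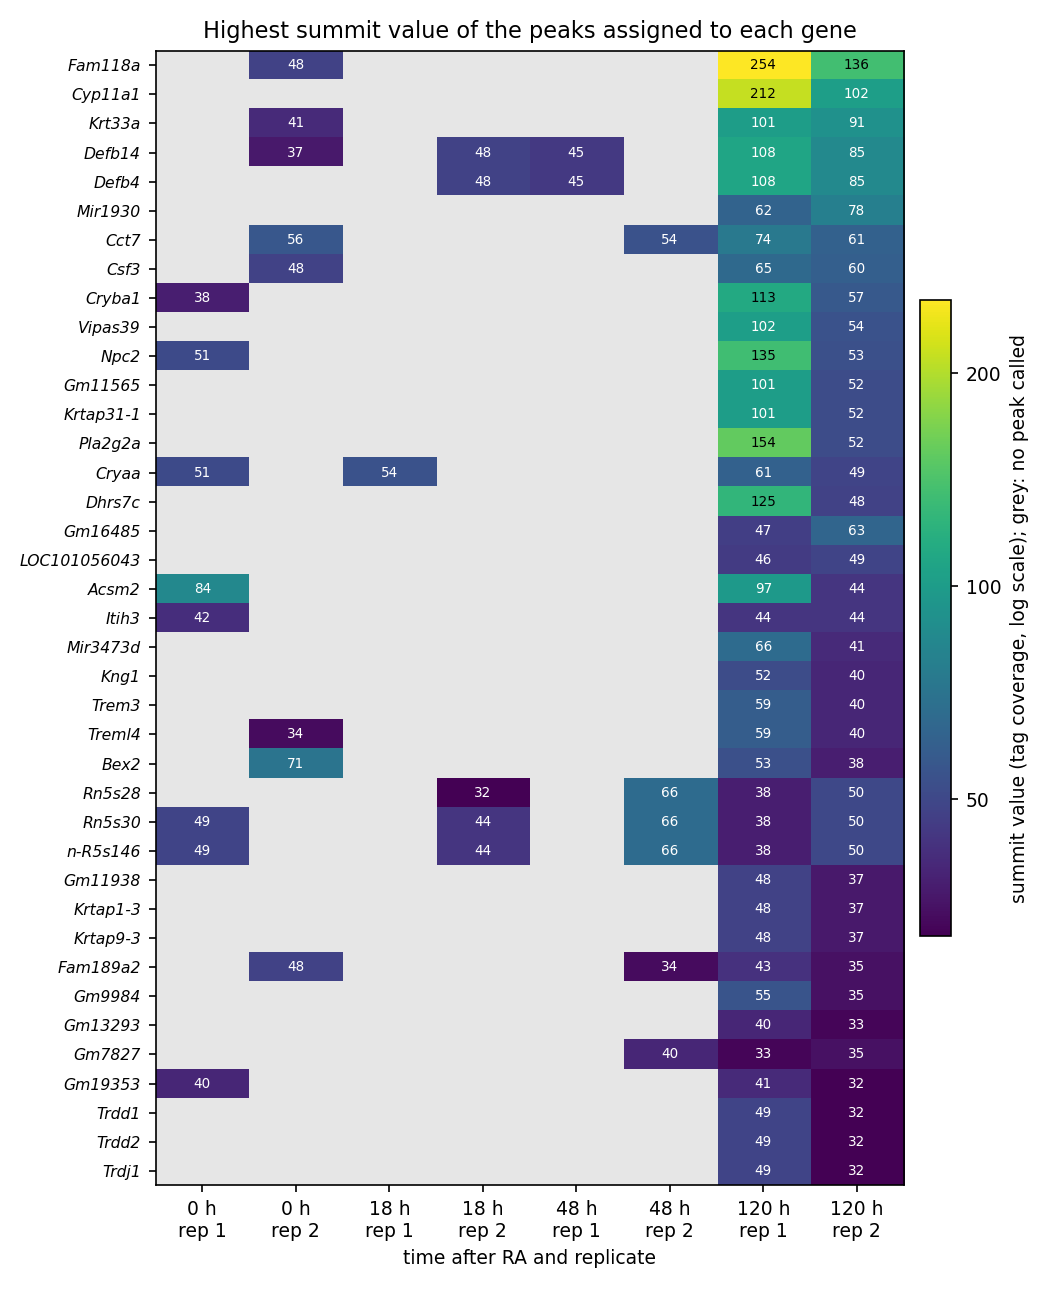
Highest summit value (tag coverage, colour on a log scale) of the peaks assigned to each of the 39 genes (rows) in each of the 8 libraries (columns), with grey where no peak was called. All rows are filled at 120 h, by construction, from 254 and 136 for Fam118a down to 49 and 32 for the T cell receptor segments, and the earlier libraries hold between 1 and 8 filled rows.

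Keratin and keratin-associated protein genes, which build the hair shaft, formed a cluster of 6 genes. Krt33a, a hair keratin, had values of 101 and 91 at 120 h and a peak of 41 in 0 h replicate 2. Krtap31-1 and the neighbouring Gm11565 shared a region with values of 101 and 52 and had no earlier peak. Krtap9-3, Krtap1-3 and Gm11938 shared another region with values of 48 and 37, also without an earlier peak. The 3 regions of these 6 genes spanned chr11:99599220-100004413, and some of the genes themselves lay outside that span. These regions were the only ones at 120 h only among the 10 regions of the span. It also held 1 region at 0 h only and 1 at all 4 timepoints. RefSeq placed 16 genes with a keratin-type symbol in the span, and 6 of these had an assigned peak in any library. The libraries held 4 and 5 (0 h), 2 and 3 (18 h), 2 and 2 (48 h), and 6 and 4 peaks (120 h) in the span.

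Genes of immune defence made up the next group. Defb14 and Defb4, which encode antimicrobial beta-defensins, shared a region with values of 108 and 85 at 120 h. Both genes had a value of 48 in 18 h replicate 2 and 45 in 48 h replicate 1, and Defb14 had a further peak of 37 in 0 h replicate 2. Csf3, the granulocyte colony-stimulating factor, had 65 and 60 at 120 h and 48 in 0 h replicate 2, and its region lay in an intron of Med24. Trem3 and Treml4, receptors of myeloid cells, shared a region with values of 59 and 40, and Treml4 had a peak of 34 in 0 h replicate 2. The segments Trdd1, Trdd2 and Trdj1 of the T cell receptor delta locus shared a region with 48 and 32 and had no earlier peak, and a second peak of 49 was assigned to them in 120 h replicate 1.

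Lens crystallins, secreted proteins and metabolic enzymes were also present. Cryba1, a beta-crystallin, had 113 and 57 at 120 h and 38 in 0 h replicate 1. Cryaa, an alpha-crystallin, had 61 and 49 at 120 h, and it also had a value of 51 in 0 h replicate 1 and of 54 in 18 h replicate 1. Pla2g2a, a secreted phospholipase gene that RefSeq lists as a transcribed pseudogene in this reference, had 154 and 52 and no earlier peak, and its region lay in an intron of the related gene Pla2g5. The other genes of this group were Dhrs7c (125 and 48), Acsm2 (97 and 44, with 84 in 0 h replicate 1), Kng1 (52 and 40) and Itih3 (44 and 44, with 42 in 0 h replicate 1). The last pair encode the plasma proteins kininogen and an inter-alpha-trypsin inhibitor heavy chain.

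A group of genes with general cellular functions had its peaks far from the gene start. Npc2, a lysosomal cholesterol carrier, had 135 and 53 at 120 h and 51 in 0 h replicate 1, and its region lay 23272 bp downstream of the start. Vipas39, which takes part in endosomal and lysosomal sorting, had 102 and 54 and no earlier peak, with the region 29102 bp downstream. Cct7, a subunit of the chaperonin that folds actin and tubulin, had 74 and 61 at 120 h, the 74 from a second peak in replicate 1. Its earlier values were 56 in 0 h replicate 2 and 54 in 48 h replicate 2. The region called in both 120 h libraries, with 62 and 61, lay 26031 bp downstream in an intron of Fbxo41. The starts of Cct7, Fam118a and Npc2 are CpG-rich (GC of at least 50% and an observed over expected CpG ratio of at least 0.6 in the RefSeq promoter window), and no library had a listed peak within 1000 bp of them. Among all 10995 CpG-rich starts, 95.3% had a peak within 1000 bp in at least 1 library. The authors removed peaks on the ENCODE blacklist, which were not analysed here, so these starts are not known to be closed and the part of that removal was not tested.

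Small RNA genes were represented by 2 miRNA and 3 5S rRNA genes. Mir1930 had values of 62 and 78 at 120 h and no earlier peak, with the region at -1112 bp from its start in 120 h replicate 1. Mir3473d had 66 and 41 and no earlier peak, and 82.3% of its 300 bases were masked as repeats. The rRNA genes Rn5s28, Rn5s30 and n-R5s146 shared a region with 38 and 37 at 120 h, and that region had earlier peaks of 32 (18 h replicate 2) and 45 (48 h replicate 2). Over all their peaks the 120 h values were 38 and 50, below the 66 in 48 h replicate 2. Copies of the 5S genes are nearly identical, so the placement of tags there is uncertain. The mature miRNAs made from the 2 miRNA genes are printed from RefSeq with the seed, bases 2 to 8, in capitals, and no seed is shared among them.
mmu-miR-1930-5p, chr10:77641236-77641257, plus strand: aCCUCCAUaguaccugcagcgu
mmu-miR-1930-3p, chr10:77641274-77641295, plus strand: gGUGCAGUuacuguggcugugg
mmu-miR-3473d, chr8:111016498-111016521, minus strand: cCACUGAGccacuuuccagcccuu

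Across the 39 genes, summit values ran from 33 to 254 in 120 h replicate 1 (median 59) and from 32 to 136 in replicate 2 (median 49). Over the 16514 genes with a peak in both 120 h libraries the medians were 208 and 144. Those genes had a median of 2 peaks per 120 h library, against 1 for the 39 genes, and the highest peak was taken. Over the 1526 regions at 120 h only the medians were 84 and 52, so values below those of all genes were shared with that class. The value was higher in replicate 1 for 31 genes, lower for 7 and equal for 1, and the median ratio of replicate 1 to replicate 2 was 1.3, against 1.4 over the 16514 genes. The lowest values among the genes were 41 and 32 for Gm19353, which also had 40 in 0 h replicate 1, 49 and 32 for Trdd1, Trdd2 and Trdj1, and 40 and 33 for Gm13293. Gm7827 had 33 and 35 and a peak of 40 in 48 h replicate 2. Of the 3 unmatched names, none had an earlier peak, with 47 and 63 for Gm16485, 46 and 49 for LOC101056043 and 55 and 35 for Gm9984.

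By the rule, earlier peaks of these genes could fall in at most 1 library of each timepoint. No earlier library had a peak for 20 of the 39 genes, 11 had a peak in 1 earlier library, 5 in 2 and 3 in 3. The earlier peaks fell on 8 and 8 genes (0 h), 1 and 5 genes (18 h), and 2 and 6 genes (48 h). Bex2, an X-linked gene of the brain-expressed X-linked family, had 71 in 0 h replicate 2, above its 53 and 38 at 120 h. The region itself had no peak in any earlier library for 22 of the 37 genes with a common region. These 22 genes lay in 16 of the 28 distinct regions. Among all 1526 regions at 120 h only, 831 likewise had no earlier peak, so this was common in that class.

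The genes just outside the rule had a peak in both libraries of an earlier timepoint. There were 574 genes with a peak in both 120 h libraries and in both libraries of exactly 1 earlier timepoint, ranked by the lower earlier value. The first were Morc4 (31 and 46 at 0 h, 38 and 38 at 120 h) and Olfr179 (31 and 50 at 0 h, 36 and 46 at 120 h). Numb followed with 34 and 32 at 48 h and 186 and 122 at 120 h, then Pld4 (48 and 34 at 0 h, 91 and 35 at 120 h) and Slc38a8 (48 and 34 at 0 h, 88 and 54 at 120 h). The values on the 2 sides of the rule therefore overlapped.

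**Figure D2:**
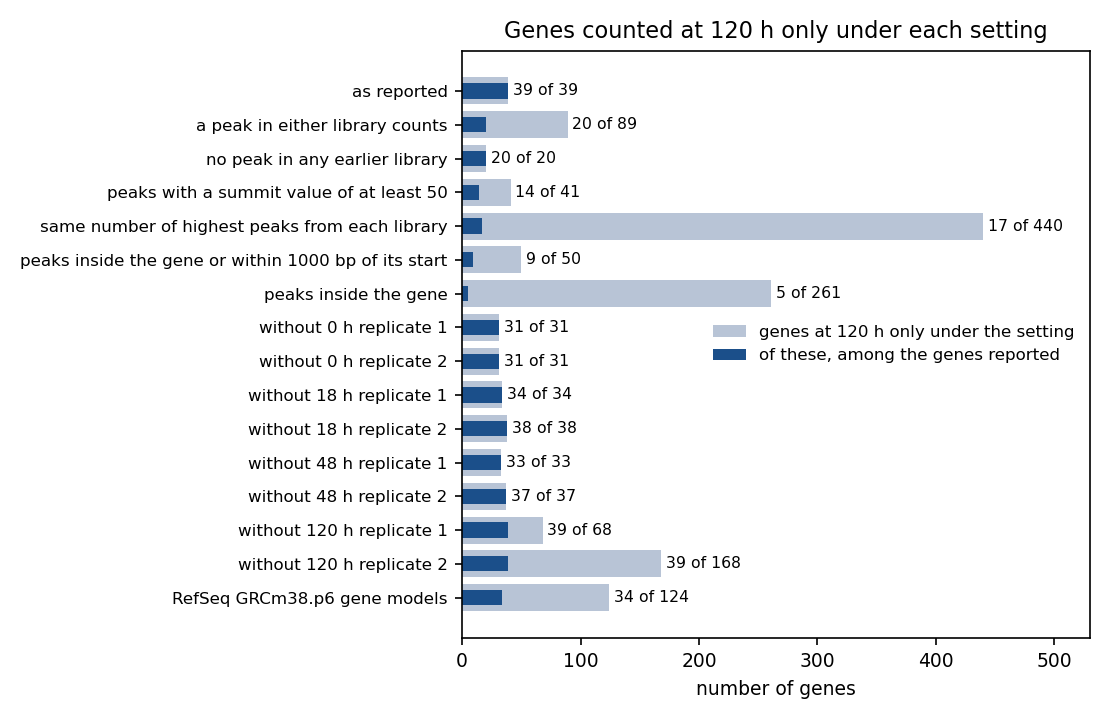
Number of genes counted at 120 h only (light bars) and how many of these were among the 39 genes (dark bars) when 1 setting of the rule was altered. The count runs from 20 to 440, and the number of the 39 genes kept runs from 5 to 39.

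The list depended on how peaks were selected. When the 24643 highest peaks of each library were used, the number of peaks in the smallest library, 440 genes were at 120 h only and 17 of the 39 remained. With peaks inside the gene only, 261 genes were counted and 5 remained, and with summit values of at least 50 the counts were 41 and 14. With RefSeq gene models, an alternative chosen after seeing the data, 124 of 32512 genes were at 120 h only, and 34 of the 36 genes with a model remained, without Cyp11a1 and Defb14.

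Peaks of these genes were seldom at the gene start. Within 1000 bp of the start, 5 of the 39 genes (12.8%) had a peak in both 120 h libraries, against 69.9% of the 16514 genes with peaks in both 120 h libraries. They were Bex2, Fam189a2, Krtap31-1, Trdd2 and Trdj1, and Trdd2 and Trdj1 had the same region. The 16514 genes include the 15054 at all 4 timepoints, which the rule leaves out. The contrast with the 16514 is therefore partly built in, and it was not tested. The share with a peak at the start was 36.0% at 0 h for the 2666 genes at 0 h only and 35.2% for the 557 genes at 0 and 120 h. The assigned region lay upstream of the gene for 20 genes, downstream for 10 and inside it for 7. Over the 91 assignments of 120 h peaks to these genes, 51.6% were upstream, 28.6% downstream and 19.8% in the gene. The shares were 37.8%, 21.0% and 41.1% over the 76331 assignments of 120 h peaks to all genes. The table assigned more than 1 gene to 21 of the 28 regions (75.0%), against 38.1% of the 18524 regions with a gene at 120 h, and a region shared by several of the 39 genes counts here by construction. For 13 of the 37 genes the region was also assigned to a gene accessible at all 4 timepoints. Genes with a common region, such as Trdd1, Trdd2 and Trdj1, are each counted here. At the summit the annotation gave an exon for 6 of the 28 regions, an intron for 13 and no gene for 9. These shares were not counted over other regions, so they only describe the regions of the 39 genes.

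**Figure D3:**
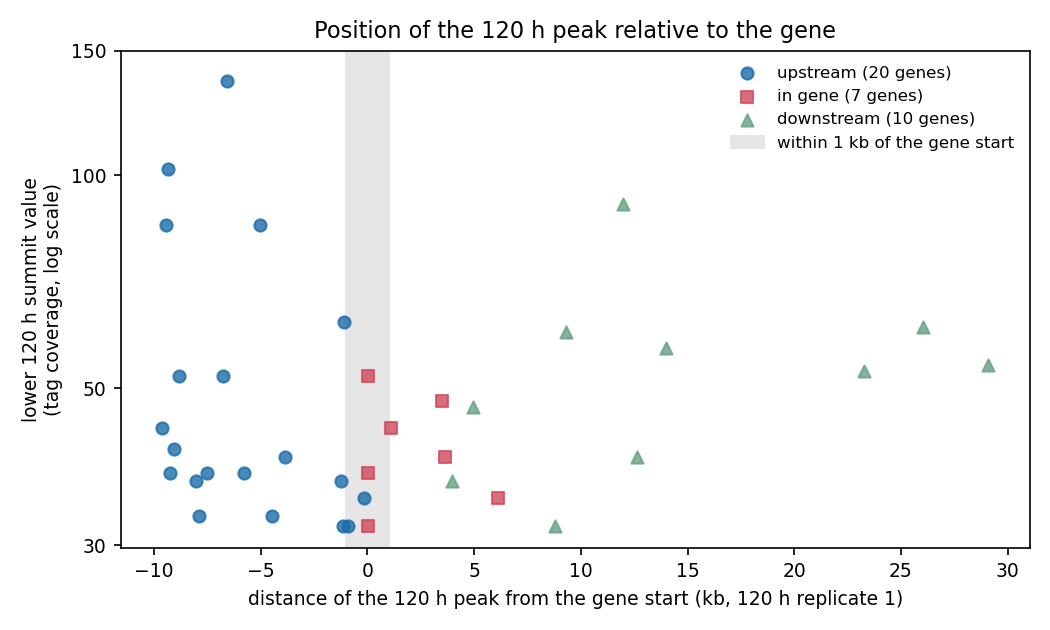
Distance of the 120 h peak from the gene start in kb (120 h replicate 1, x axis) against the lower of both 120 h summit values (y axis, log scale) for the 37 genes with a common region, with shape and colour for the position relative to the gene. Upstream peaks number 20, downstream peaks 10 and peaks in the gene 7, and the highest lie outside the grey band of 1000 bp around the start.

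The promoters of Krtap31-1, Fam189a2 and Bex2 are printed because a 120 h peak lay at the start, with 250 bases before the RefSeq start in GRCm38.p6 and capitals for 3 textbook promoter boxes on either strand. The TATA box was searched as TATAAA, which occurs in 12.4% of the 32851 promoters in the table. The CCAAT box occurs in 33.8% of them, and the GC box, searched as GGGCGG, in 32.7%. The search set no limit on strand or on position within the 250 bases, so a match describes the letters and not a working box. The TTTATA marked at Bex2 is TATAAA on the opposite strand and lies near the far end of the 250 bases. The Krtap31-1 start had values of 101 and 52 at 120 h only, the Fam189a2 start had 38 and 35 at 120 h, preceded by 48 in 0 h replicate 2 and by 34 in 48 h replicate 2, and the Bex2 values are given above.
Krtap31-1, chr11:99907670-99907919, plus strand: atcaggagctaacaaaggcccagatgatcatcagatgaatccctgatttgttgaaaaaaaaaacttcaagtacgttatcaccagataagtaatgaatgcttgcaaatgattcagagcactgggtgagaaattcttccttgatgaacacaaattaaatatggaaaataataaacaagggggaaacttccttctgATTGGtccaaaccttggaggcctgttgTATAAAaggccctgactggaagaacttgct
Fam189a2, chr19:24031020-24031269, minus strand: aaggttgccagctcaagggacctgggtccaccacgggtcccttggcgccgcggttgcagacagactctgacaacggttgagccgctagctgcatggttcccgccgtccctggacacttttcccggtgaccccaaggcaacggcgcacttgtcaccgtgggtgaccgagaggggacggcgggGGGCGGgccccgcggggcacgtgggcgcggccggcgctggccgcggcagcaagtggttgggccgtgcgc
Bex2, chrX:136068237-136068486, minus strand: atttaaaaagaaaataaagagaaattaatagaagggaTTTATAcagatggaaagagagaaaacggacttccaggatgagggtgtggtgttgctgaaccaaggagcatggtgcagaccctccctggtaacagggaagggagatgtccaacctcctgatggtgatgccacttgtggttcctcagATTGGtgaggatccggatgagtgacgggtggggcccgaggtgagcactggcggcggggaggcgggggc

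The 28 regions were poor in CpG. Their 300-base windows had a median GC content of 48.8% and a median observed over expected CpG ratio of 0.178, close to the 48.0% and 0.179 of all regions at 120 h only and below the 58.7% and 0.6 of the 22112 regions with peaks in both 120 h libraries. A CpG island was annotated in 2 of the 28, those at Bex2 and Fam189a2, against 7.27% of the regions at 120 h only and 49.3% of all regions at 120 h. At least 50% of the window was repeat-masked in 5 of the 28 (17.9%), against 7.73% of the regions at 120 h only.

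Short motifs were counted on both strands of these windows. AGGTCA, the core sequence bound by RA receptors and other nuclear receptors, occurred in 2 of the 28 windows (7.14%), those of Trem3 and of Gm11938, against 15.7% of the regions at 120 h only. Its direct repeats with a spacing of 1, 2 or 5 bases were in none of the 28 and in none of the 1526. The E-box CATCTG was in 7 windows (25.0% against 24.2%) and the CCAAT box in 10 (35.7% against 26.4%). The E-box CACGTG was in 3 (10.7% against 4.52%), the GC box GGGCGG in 3 (10.7% against 9.04%) and the forkhead motif TGTTTAC in 3 (10.7% against 4.59%). The SOX motif AACAAT was in 2 (7.14% against 18.2%). The CRE motif TGACGTCA and the ETS motif CCGGAAG were in none of the 28, against 0.131% and 1.57%. A match is a description of the letters and not a binding site.

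Lists of genes known for germ cell development were compared with the 39 genes. None of 6 germ cell genes, 30 meiotic prophase genes, 17 spermatid genes and 9 genes of the retinoid response was among the 39. With 0.189% of all accessible genes chosen, a count of 0 in lists of this size is not a result about the 39 genes. Of the listed genes, 5, 27, 8 and 6 were accessible at all 4 timepoints. Among all 20673 accessible genes, 15054 were, and the difference of the lists from that share was not tested.

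Heights could be tested only next to these genes, at regions with a peak in all 8 libraries, which the rule did not use. There were 48 such regions within 100 kb of the 28 regions, and limma was fitted on centred log2 summit values over all 15536 such regions, comparing 120 h with the mean of 0, 18 and 48 h. At an adjusted p under 0.05, 12 of the 48 were higher at 120 h (25.0%, against 24.3% of all 15536) and 6 were lower (12.5%, against 17.2%). The share of higher regions within 100 kb was near the background, the difference from it was not tested in either direction, and the median log2 change was 0.20 against 0.09. Within 50 kb, 10 of 25 regions were higher (40.0%) and 3 lower (12%), so the share of higher regions moved with the distance chosen. Without centring, 4 were higher and 3 lower, against 735 and 1051 over all regions, and without 120 h replicate 2 the counts were also 4 and 3, against 799 and 1118.

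The region with the lowest p was at Thra, a thyroid hormone receptor gene, 32893 bp from the Csf3 region. At chr11:98743647-98744562 it gave 117 and 114 (0 h), 136 and 136 (18 h), 186 and 198 (48 h), and 542 and 357 (120 h), so both 120 h libraries lay above all earlier ones. The log2 change was 1.61 (SE 0.17, limma adjusted p = 0.000151). A region at Gsdma and Psmd3, also near Csf3, gave 175 and 195 (0 h), 91 and 134 (18 h), 106 and 113 (48 h), and 266 and 237 (120 h), and rose by 0.95 (SE 0.18, limma adjusted p = 0.00202). One at Gstz1 and Pomt2 near Vipas39 gave 351 and 432 (0 h), 155 and 257 (18 h), 190 and 184 (48 h), and 513 and 383 (120 h), and rose by 0.87 (SE 0.18, limma adjusted p = 0.00286). In the keratin cluster, the Krtap9-5 region gave 186 and 213 (0 h), 66 and 55 (18 h), 39 and 54 (48 h) and 44 and 35 (120 h), and fell by 1.06 on the log2 scale (SE 0.19, limma adjusted p = 0.00176). A region without an assigned gene near Rn5s28 gave 144 and 281 (0 h), 72 and 82 (18 h), 53 and 60 (48 h), and 66 and 35 (120 h), and fell by 0.98 (SE 0.20, limma adjusted p = 0.00265). Before centring, the 120 h values of the Gstz1 and Pomt2 region overlapped those at 0 h. Those of the Krtap9-5 region and of the region near Rn5s28 overlapped those at 48 h. These changes therefore rest on the centring and on the mean of the earlier timepoints.

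**Figure D4:**
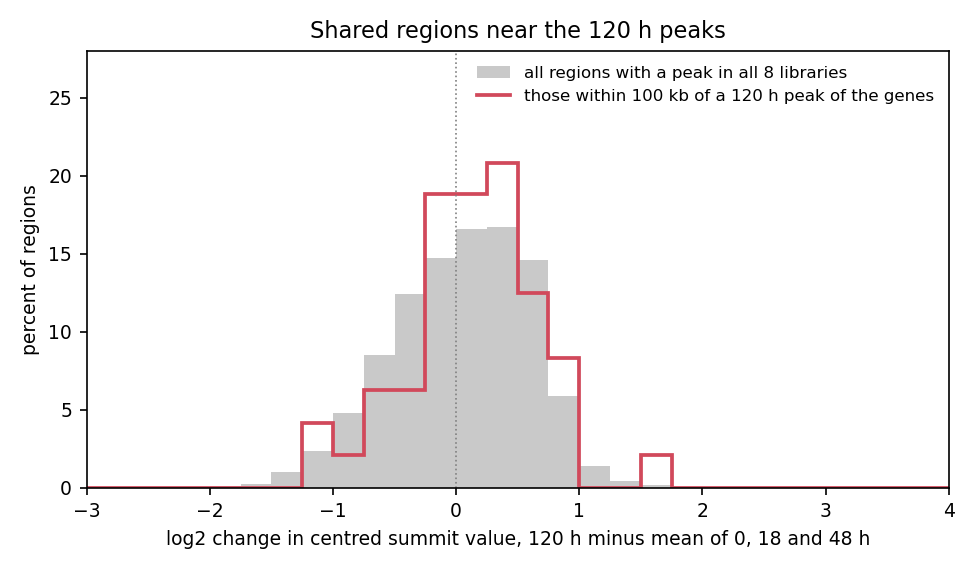
Distribution of the log2 change in centred summit value, 120 h minus the mean of 0, 18 and 48 h (x axis), as percent of regions (y axis), for all 15536 regions with a peak in all 8 libraries (grey) and the 48 within 100 kb of a 120 h peak of the genes (red line). The distributions overlap, with medians of 0.09 and 0.20, and the Thra region at 1.61 stands at the upper end.

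Within 100 kb of the 28 regions, and leaving out the 28 themselves, there were 199 regions, and 5 of them (2.51%) were at 120 h only, against 2.49% of all regions. Members near each other, as in the keratin cluster, do not enter that count.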

How the data were processed

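ATAC-seq libraries of the 8 samples were processed by the authors with bcl2fastq 2.20, BWA 0.7.12, SAMtools 0.0.19, bedtools 2.25.0 and MACS2 2.1.0 on mm10, per the labels and the study's methods, which call peaks in each library without a control, after equalising tags, and remove ENCODE blacklist peaks. The deposited signal is tag coverage at the peak summit and its mean over the peak. Counts of reads per region were not used here, so depth behind a peak is known only as signal and no interval for counting error was given. Genes, distances and positions were taken from the deposited table, and the gene annotation behind them is not given in the sources used here. The labels and the methods give different numbers of cells per sample.

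Regions were made by merging peaks that shared 1 bp or more. A timepoint was counted where both libraries had a peak. The members and gene lists were chosen with earlier results of these data known. Named with values in every library were the 15 genes with the highest lower 120 h value, those with a 120 h peak at the start and the 5 neighbouring regions with the lowest p, and 5 genes on each side of the rule were named. Sequence and promoters came from RefSeq GRCm38.p6. Summit values in shared regions were centred on each library's median log2 value and compared with limma 3.58.1 in R 4.3.3 (4 groups, Benjamini-Hochberg). In simulated data for this comparison over 15536 regions, 92.5% of 200 changed regions were called at a log2 change of 1, with 13 false calls. Every simulated region had the same spread and only those 200 changed, so the share need not hold for the data. Tables were made in Python 3.11.15. The p-values measure the spread between 2 libraries per timepoint.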

Additional observations from a re-analysis of the deposited data

How the results depend on the processing

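The count of 39 genes rested on the peaks and gene models used. It was 89 where a peak in either library counted, 20 where no earlier library could have a peak, 440 with the same number of highest peaks from each library, 261 with peaks inside the gene and 124 with RefSeq gene models, the last chosen after seeing the data. With single libraries left out it ranged from 31 to 168, with 68 without 120 h replicate 1 and 168 without 120 h replicate 2. The 5 genes with a peak at the start became 9 with a limit of 3000 bp, 8 with a peak in either 120 h library and 1 with values of at least 50. The median summit value of 54 was 39.7 for the mean signal of the peak, and 49 or 59 with 1 of the 120 h libraries left out. The 22 genes whose region had no earlier peak became 24 with 100 bp taken either side of each summit and 30 with at most 1 earlier library.

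Of the 12 higher and 6 lower neighbouring regions, 4 and 3 were called without centring (8.33% and 6.25%, against 4.73% and 6.76% of all regions), 5 and 4 with quantile normalization (10.4% and 8.33%, against 6.67% and 8.57% of all regions), 29 and 11 of 102 within 200 kb (28.4% and 10.8%, against 24.3% and 17.2%), 10 and 3 of 25 within 50 kb (40.0% and 12%, against the same), and 4 and 3 for 120 h against 48 h (8.33% and 6.25%, against 9.47% and 7.45%). With single libraries left out, the higher regions ranged from 4 to 13 and the lower from 3 to 8. The replicate block gave 12 and 6. Correlations of the deviations of libraries with the same number ran from -0.224 to 0.248, so the numbers do not pair the samples. With 2 libraries per timepoint, a peak missed in 1 library decides whether a gene is on the list, and the signal where no peak was listed is not known.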
